A study of Mus musculus with 2 samples.

Results

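The clustered replication-dependent histone genes are the genes whose symbols begin with Hist1h, Hist2h, Hist3h or Hist4h. These symbols picked out 64 of the 22886 genes in the deposited tables, on 67 of 23170 loci, and the values of the 3 symbols on more than 1 locus were summed. By the class written in the symbol there were 5 H1 genes (the linker histones), 16 H2A genes, 18 H2B genes, 12 H3 genes and 13 H4 genes (the core histones around which DNA is wound). The large cluster on chromosome 13, Hist1, held 51 of them. Chromosome 3 (Hist2) held 9, chromosome 11 (Hist3) 3 and chromosome 6 (Hist4) 1.

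The series held 2 RNA-seq libraries, 1 per condition, made from polyA RNA. Both came from wild type C57BL/6 mice that carried a subcutaneous tumor of LLC, the Lewis lung carcinoma line of mouse lung tumor cells, and the sequenced cells were sorted by flow cytometry and called aerobic in the labels. The mice received either vehicle or clodronate, an agent used to deplete macrophages. The gate of the sort, the age of the mice, the dose, the time after injection and how many mice went into a library were not given in the sources used here, and a growth protocol in the labels names cultured EML cells, a blood progenitor line, which conflicts with the other labels. With 1 library per condition no difference has a replicate check, no test was made, and mouse, library and treatment cannot be told apart.

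Replication-dependent histone genes are transcribed in S phase, when new DNA has to be packed into chromatin. Their mRNAs have no introns in most cases and usually carry no poly(A) tail. They end instead just after a short stem-loop, which is bound by the stem-loop binding protein SLBP and cut with the help of the U7 small nuclear ribonucleoprotein. Some of the genes also give longer transcripts that run past the stem-loop to a polyadenylation signal. Most replacement histones, made throughout the cell cycle, are polyadenylated like other mRNAs.

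The stem-loops of the histone genes on which the results turn are shown here because the libraries were made from polyA RNA. They were read from the GENCODE M21 transcripts (mouse build GRCm38) that match the RefSeq identifiers of the deposited loci, 5′ to 3′ on the strand of the gene, with the 16 bases of the stem-loop in capitals.
Hist1h1c (H1), chr13:23739506-23739532, plus strand: ccaaaaGGCTCTTTTCAGAGCCaccac
Hist3h2a (H2A), chr11:58955166-58955192, plus strand: accaaaGGCTCTTTTCAGAGCCaccca
Hist1h2ae (H2A), chr13:23570663-23570689, minus strand: aacaaaGGCTCTTTTCAGAGCCattca
Hist1h2bg (H2B), chr13:23571837-23571863, plus strand: cccaaaGGCTCTTTTCAGAGCCaccca
Hist2h3c1 (H3), chr3:96247321-96247347, plus strand: cacaaaGGCTCTTTTCAGAGCCaccac
Hist2h4 (H4), chr3:96262934-96262960, minus strand: cctaacGGCCCTTTTTAGGGCCaacca
Hist4h4 (H4), chr6:136803993-136804019, minus strand: cacaaaGGCCCTTTTCAGGGCCcacaa
Hist1h4d (H4), chr13:23581944-23581970, plus strand: accaaaGGCCCTTTTCAGGGCCactac
Hist1h4i (H4), chr13:22040961-22040987, minus strand: cttaaaGGCCCTTTTTAGGGCCaccac
Hist1h4b (H4), chr13:23757360-23757386, plus strand: acaaaaGGTCCTTTTCAGGACCactca

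Of the 64 genes, 63 had a matched transcript, and 40 of these transcripts held a stem-loop that fitted the searched pattern, a 6-base stem starting with GG, a 4-base loop starting with TT and the complementary stem, against 130 of 21901 mouse coding genes (0.594%). A coding gene was counted if any of its coding transcripts held one, and 44 of the 130 carry a clustered histone symbol themselves. Some matched histone transcripts, such as that of Hist1h2ai (393 bases), have only the length of a coding sequence, so a stem-loop past it could not be found there. The form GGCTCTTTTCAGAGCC was the most frequent, in 22 genes of the H1, H2A, H2B and H3 classes. The 11 H4 stem-loops had other stems, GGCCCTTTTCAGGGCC in 7 genes, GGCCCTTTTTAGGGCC in 2 and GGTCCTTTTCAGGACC in 2, and none of the 29 stem-loops of the other classes had these.

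Of the histone genes 65.6% were listed at 0 RPKM (reads scaled to transcript length and to library size, so a level per length) in both libraries, against 36.6% of all genes. Above 0 in at least 1 library were 22 genes, of which 9 were above 0 in both, 2 in the vehicle library only and 11 in the clodronate library only. The other 42 were at 0 in both, among them Hist1h1t, Hist1h2aa and Hist1h2ba, which are known as testis histones, and the H1 genes Hist1h1a and Hist1h1b. A locus at 0 is given as listed at 0 and not as absent, since Ndufaf1, an assembly factor of mitochondrial complex I, was also listed at 0 in the vehicle library and at 12.8 RPKM in the clodronate library.

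**Figure D1:**
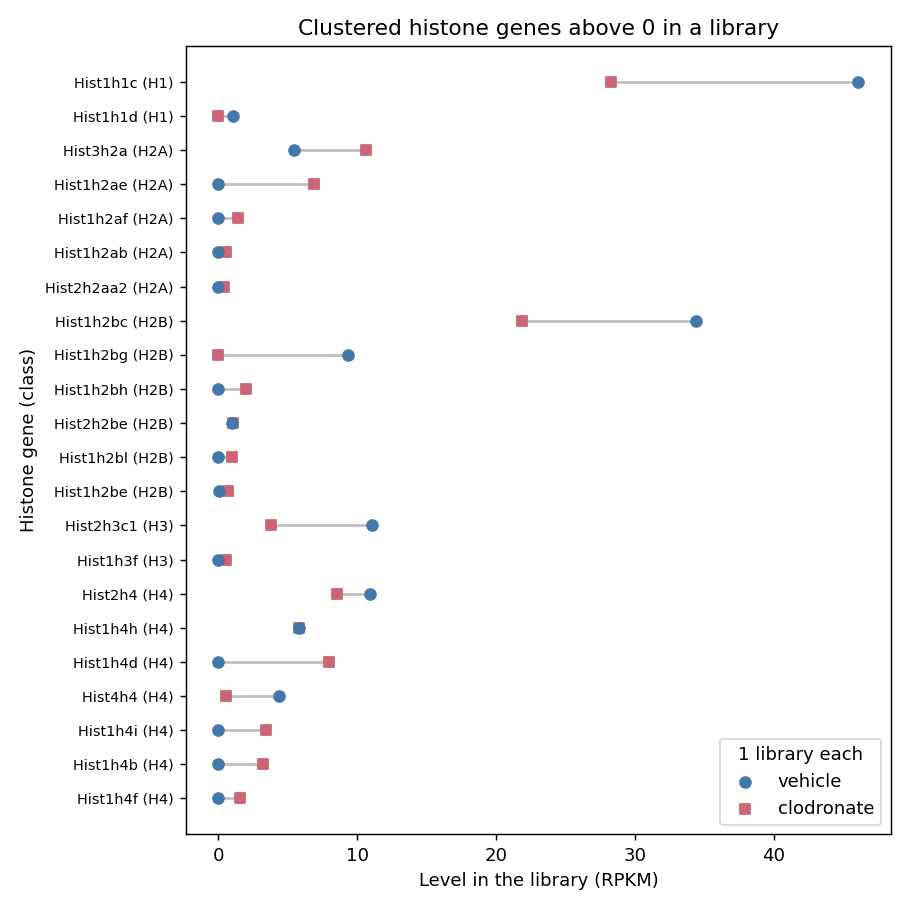
Level (RPKM, linear axis) of the 22 histone genes above 0, by class; circles are the vehicle library and squares the clodronate library, 1 library each. Hist1h1c and Hist1h2bc have the highest levels in both libraries, and 11 genes lie at 0 in the vehicle library only.

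The summed level of all 64 genes was 130 RPKM in the vehicle library and 110 RPKM in the clodronate library, a log2 ratio of clodronate over vehicle of -0.23 (all ratios are of RPKM + 1 unless stated otherwise). In bulk RNA, fewer cells of a type and less RNA per cell cannot be told apart, and a share of cells in S phase cannot be read from these sums. Without Hist1h1c, the gene with the highest level, the log2 ratio of the sum was -0.025. Without genes listed at 0 in either library it was -0.55. The genes above 0 in both libraries summed to 119 RPKM with vehicle and 81.2 RPKM with clodronate, whereas the genes above 0 only with clodronate added 29.1 RPKM, or 26.4% of that library's histone total.

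The linker histone sum was 47.2 RPKM with vehicle and 28.3 RPKM with clodronate, a log2 ratio of -0.72. The H2B sum behaved alike, with 44.8 and 26.6 RPKM and a log2 ratio of -0.73, and the H3 sum was 11.1 and 4.34 RPKM with a log2 ratio of -1.17. The H2A sum had the opposite direction, with 5.44 and 20.0 RPKM and a log2 ratio of 1.70. The H4 sum was 21.1 and 31.1 RPKM, a log2 ratio of 0.54. The core histones are built into nucleosomes in equal numbers. The mRNA sums of their classes differed within a library, but sums from polyA RNA do not measure the supply of histone proteins. By RPKM the order of all 5 classes was H1, H2B, H4, H3 and H2A with vehicle. With clodronate it was H4, H1, H2B, H2A and H3. With no replicates, neighbours in these orders cannot be said to differ.

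In 4 of the classes 1 gene made up most of the sum. Hist1h1c gave 97.7% of the H1 level with vehicle and 100% with clodronate. Hist1h2bc gave 76.8% and 82.2% of H2B, Hist2h3c1 100% and 87.2% of H3, and Hist3h2a 100% and 53.4% of H2A. The H4 class was spread over more genes, with 51.9% and 27.5% from Hist2h4. Without Hist2h3c1 the H3 ratio changed sign to 0.64, a value that rests on Hist1h3f at 0 and 0.556 RPKM, and without Hist3h2a the H2A ratio was 3.37.

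How many reads stood behind these levels could be recovered from the low values of other single-exon loci. The RPKM times the locus length less 203 bases came in steps, 1 read being worth 72.5 RPKM bases in the vehicle library and 89.0 in the clodronate library, and this gave whole numbers, within 0.1 of a read, for 51 of 51 low loci with vehicle and 93 of 94 with clodronate. Of the 27 histone values with a read number from the locus length, 23 were whole within 0.1 and the farthest was 0.229 of a read away. A read was thus worth 1.23 times more in the clodronate library, which was the shallower library by this measure and listed more histone genes above 0 (20 against 11). Over all genes 13728 were above 0 with clodronate and 13103 with vehicle.

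The histone genes took 2026 recovered reads in the vehicle library and 1111 in the clodronate library, leaving out Hist1h2be, whose locus merges several transcripts over 38889 bases. Of these, 42.6% and 38.9% lay in Hist1h1c. Scaled for what a read is worth, the clodronate library had 0.672 of the vehicle reads. The ratio by reads was 0.586 for H1, 0.612 for H2B, 0.367 for H3 and 2.38 for H2A. For H4 the direction turned: 204 reads with vehicle and 77 with clodronate, a ratio of 0.463, against the higher RPKM sum with clodronate. A sum of reads gives weight to long loci, and 160 of the 204 vehicle reads of H4 lay in Hist4h4, without which the H4 reads were 44 and 61, a ratio of 1.70. The direction of the H4 class therefore depended on the scale and on 1 gene. The order of the classes also differed by reads: with vehicle it was H1 with 904 reads, H2B with 537, H3 with 247, H4 with 204 and H2A with 134, and with clodronate H1 with 432, H2B with 268, H2A with 260, H4 with 77 and H3 with 74.

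**Figure D2:**
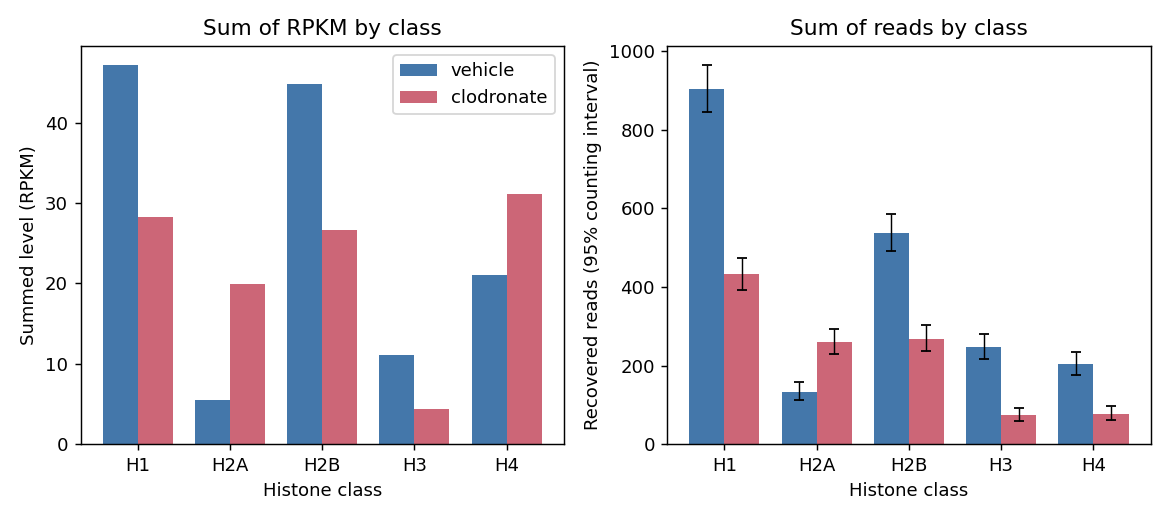
Left, summed RPKM of each histone class in the vehicle and the clodronate library; right, recovered reads of each class with exact 95% Poisson intervals, which cover counting error only. The H4 bars are higher with clodronate for RPKM (31.1 against 21.1) and lower for reads (77 against 204).

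Hist1h1c, a linker histone gene whose product is H1.2, had the highest level of all: 46.1 RPKM with vehicle and 28.3 RPKM with clodronate, from 863 and 432 reads. The ratio of clodronate to vehicle RPKM was 0.613, with an exact 95% counting interval of 0.546 to 0.690. Such intervals cover the counting of reads in these libraries only, and reads without molecular identifiers are not independent molecules. Hist1h2bc, an H2B gene, was next with 34.4 and 21.9 RPKM. Its locus has an intron, and with the length of the matched transcript it held about 452 and 234 reads, a ratio of 0.635 (0.540 to 0.745). Both genes were thus lower with clodronate by close to the same factor.

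Hist2h3c1, an H3 gene of the chromosome 3 cluster, was listed at 11.1 RPKM with vehicle and 3.78 RPKM with clodronate. This was 247 against 69 reads, a ratio of 0.342 (0.258 to 0.449). Of its transcript, 34.8% of the 50-base words also occurred at another gene, so reads could have been assigned between near copies. Hist4h4, the lone clustered histone gene on chromosome 6, showed the lowest ratio among genes above 0 in both libraries. It was listed at 4.34 RPKM with vehicle and 0.532 RPKM with clodronate, or 160 and 16 reads, a ratio of 0.123 (0.0684 to 0.205). Only 6.75% of its transcript was shared with other genes.

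Hist3h2a, an H2A gene on chromosome 11, went the other way among the well covered genes, with 5.44 RPKM from 134 reads in the vehicle library and 10.6 RPKM from 214 reads in the clodronate library, a ratio of 1.96 (1.57 to 2.45). It shared 2.003% of its transcript with other genes. The H4 genes Hist1h4h and Hist2h4 and the H2B gene Hist2h2be had ratios whose counting intervals included 1. Hist1h4h was listed at 5.81 and 5.82 RPKM (22 and 18 reads, interval 0.507 to 1.96). Hist2h4 was listed at 11.0 and 8.55 RPKM (22 and 14 reads, interval 0.369 to 1.59) and Hist2h2be at 0.961 and 1.03 RPKM (32 and 28 reads, interval 0.622 to 1.84). At this depth a difference between the libraries was not detectable in these 3 genes, and the intervals allow one of up to 1.96 times upward for Hist1h4h, 1.59 for Hist2h4 and 1.84 for Hist2h2be, and of up to 1.97, 2.71 and 1.61 times downward. Hist1h2be, with 0.0840 and 0.720 RPKM, has no read number because of its merged locus.

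**Figure D3:**
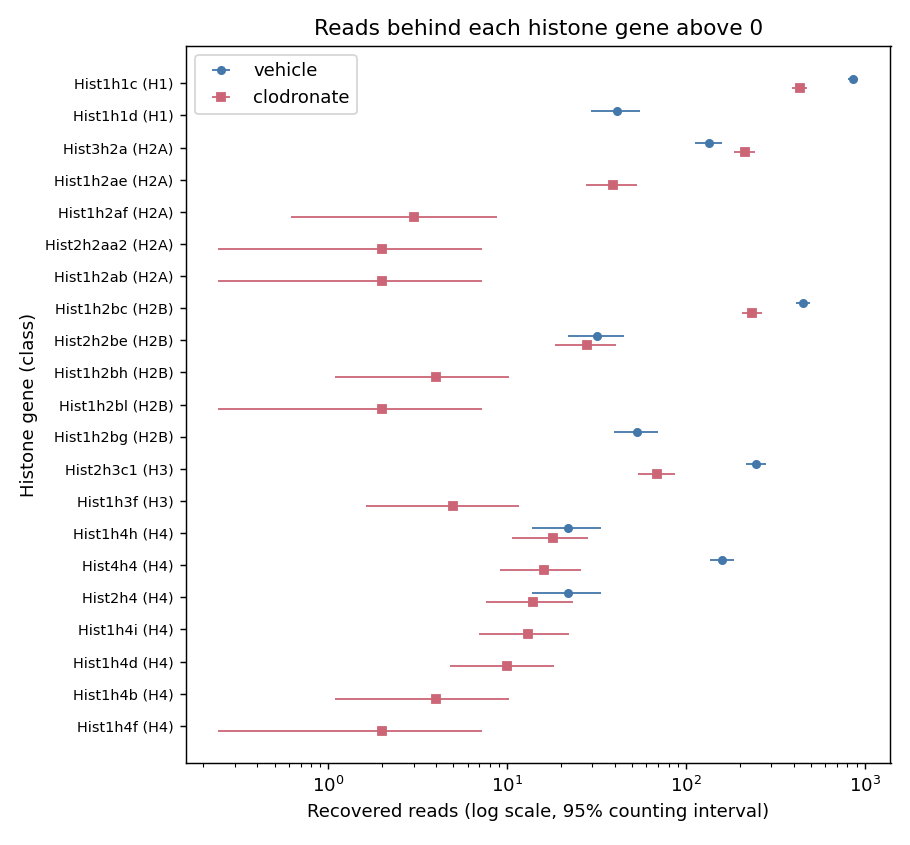
Recovered reads (log axis) behind each histone gene above 0 other than Hist1h2be, with exact 95% Poisson intervals for counting error; genes at 0 in a library have no point there. Hist1h1c has 863 and 432 reads, whereas most genes above 0 with clodronate only have fewer than 6.

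The 11 genes above 0 with clodronate only were H2A, H2B, H3 and H4 genes on loci of 312 to 1003 bases. Highest were the H4 gene Hist1h4d with 7.97 RPKM from 10 reads and the H2A gene Hist1h2ae with 6.92 RPKM from 39 reads. The H4 genes Hist1h4i and Hist1h4b followed with 3.46 RPKM from 13 reads and 3.19 RPKM from 4 reads. On a locus of 312 bases, the length of Hist1h4d and Hist1h4b, a single read was worth 0.816 RPKM, so that high levels per length were reached with few reads. Over the 11 genes the reads ran from 2 to 39 with a median of 4, summed to 86, and were under 6 in 8 of them. The others were Hist1h2bh at 1.998 RPKM, Hist1h4f at 1.59 RPKM, Hist1h2af at 1.40 RPKM, Hist1h2bl at 0.999 RPKM, Hist1h2ab at 0.587 RPKM, Hist1h3f at 0.556 RPKM and Hist2h2aa2 at 0.390 RPKM. The 2 genes above 0 with vehicle only were Hist1h2bg, an H2B gene at 9.34 RPKM from 53 reads, and the H1 gene Hist1h1d at 1.07 RPKM from 41 reads.

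Among all 14516 genes above 0 in at least 1 library, 9.73% were above 0 with clodronate only and 5.43% with vehicle only, whereas of the 22 histone genes it was 11 and 2. Other short loci were more often above 0 in only 1 library than all genes were, in either direction. Among 99 other loci under 1000 bases, small RNA loci left out, 25.3% were above 0 with clodronate only and 29.3% with vehicle only. Of the 13 histone genes under 1000 bases that were above 0, 10 were so with clodronate only, 1 with vehicle only and 2 in both. The comparison with short loci was chosen after the values were seen, and the genes of a cluster are not independent of each other.

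Of the 64 genes, 12 reached 1 RPKM on average. On the scale of RPKM + 1, 4 of these were at least 3-fold higher with clodronate (Hist1h4d, Hist1h2ae, Hist1h4i and Hist1h4b), against 2.86% of the 10982 genes with that mean, and 2 at least 3-fold lower (Hist1h2bg and Hist4h4), against 2.32%. A small set read in this way should be taken with its values: all 4 higher genes were listed at 0 in the vehicle library, Hist1h2bg was listed at 0 in the clodronate library, and without genes listed at 0 the counts were 0 higher and 1 lower. Just outside the count lay Hist1h2bh, with a mean of 0.999 RPKM. The median log2 ratio of the 12 genes was -0.16, with 6 above 0 and 6 below 0, beside 0.02 over all genes with that mean. It was -0.63 without genes listed at 0.

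A pair of neighbours in the chromosome 13 cluster was listed in a reciprocal way. Hist1h2ae on the minus strand and Hist1h2bg on the plus strand lie head to head, with 179 bases between their loci (chr13:23662386-23663089 and chr13:23663269-23663883 in the build of the files, mm9). The vehicle library listed only Hist1h2bg, with 53 reads, and the clodronate library only Hist1h2ae, with 39 reads. Their summed level was 9.34 RPKM with vehicle and 6.92 RPKM with clodronate, a log2 ratio of -0.38. Of the 50-base words, 43.2% in Hist1h2ae and 49.7% in Hist1h2bg also occurred at another gene, so reads could have been assigned between near copies. The strand setting of the counting is not given in the sources used here. Histone H2A and H2B genes often share such a promoter, and it is shown because both genes start within it. The sequence is that of the RefSeq promoter window of Hist1h2bg (GRCm38.p6), of which 279 of 300 bases also lie in the window of Hist1h2ae, with the box CCAAT, the motif TATAAA and the octamer ATTTGCAT in capitals wherever they occur on either strand.
Hist1h2bg promoter, chr13:23571150-23571449, plus strand: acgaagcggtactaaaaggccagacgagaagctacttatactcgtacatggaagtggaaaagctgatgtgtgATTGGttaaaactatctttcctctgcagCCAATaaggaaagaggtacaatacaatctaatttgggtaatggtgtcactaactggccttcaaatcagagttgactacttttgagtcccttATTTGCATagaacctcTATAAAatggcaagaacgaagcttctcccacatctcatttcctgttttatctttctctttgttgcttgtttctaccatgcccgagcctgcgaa

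This window held 2 CCAAT motifs, 1 on each strand, and 1 each of TATAAA and the octamer, none overlapping another. CCAAT boxes are bound by NF-Y, TATAAA by the TATA-binding protein and the octamer by POU factors such as Oct1. A RefSeq promoter window was found for 58 of the 64 genes, all but Hist3h2bb-ps, Hist1h3f, Hist1h2bc, Hist1h3a, Hist2h2be and Hist2h4. CCAAT occurred in 46 of 46 windows of H1, H2A, H2B and H3 genes and in 3 of 12 windows of H4 genes, against 41.1% of the 27025 genes with a window. TATAAA occurred in 33 of 58, against 15.7%. The octamer occurred in 7 of 15 H2B and 7 of 16 H2A windows and in none of the H1, H3 and H4 windows, against 1.97%. Head-to-head pairs share these windows, so that the counts of H2A and H2B genes are not separate.

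The listing of the genes went with the annotated end of the transcript. A polyadenylation signal, AATAAA or ATTAAA on the strand of the transcript, was found within the last 40 bases of 16 of the 63 matched transcripts, against 48.7% of 58797 coding transcripts. Some matched transcripts, such as those of Hist1h2bl (381 bases) and Hist1h4k (312 bases), have only the length of a coding sequence. In these a signal past the coding sequence could not be found, so the count also reflects how complete the annotation is. Of the 9 genes above 0 in both libraries 8 had one, Hist1h2bc being the exception. Of the 11 genes above 0 with clodronate only 2 had one, Hist1h2ae and Hist1h4i, as did none of the 2 above 0 with vehicle only and 6 of the 42 at 0 in both. The 16 genes carried 65.4% of the histone RPKM with vehicle and 63.2% with clodronate, with a log2 ratio of -0.28 for their sum, beside -0.14 for the 47 genes without a signal. In Hist1h1c, 840 bases of the transcript follow the stem-loop shown above, in Hist2h3c1 1162, in Hist3h2a 1643 and in Hist4h4 2445. Of Hist1h4h, also above 0 in both libraries, 46 bases follow it. Among genes above 0 with clodronate only the stretch ran from short to long, with 28 bases in Hist1h4b, 770 in Hist1h4d and 1214 in Hist1h2bh. In Hist1h1d, above 0 with vehicle only, it was 4884 bases. These stretches are those of the matched transcripts. The counted loci of Hist1h4b and Hist1h4d (312 bases) and of Hist1h2bh (381 bases) had the lengths of coding sequences and leave the stretch out. That of Hist2h4, 348 bases, was also shorter than its transcript of 1630 bases, at whose end the signal lies.

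The length of the locus used by the authors went with the listing as well. Among 51 genes with a locus under 1000 bases, 2 were above 0 in both libraries, and among 13 with a longer locus 7 were. For 25 genes the locus had a length that several genes of the same class share and that is a multiple of 3, as coding sequences are: 393 bases for 6 H2A genes, 381 for 7 H2B genes, 411 for 4 H3 genes and 312 for 8 H4 genes. The stem-loop and what follows it lie outside a coding sequence. The median locus was 1990 bases for genes above 0 in both libraries, 393 for those above 0 with clodronate only and 411 for those at 0 in both. Sequence shared with other genes had a median of 8.54%, 49.3% and 54.1% of the 50-base words in these 3 groups. These shares are over the whole matched transcript, which in some genes is longer than the counted locus. It had 1630 against 348 bases in Hist2h4 and 1138 against 312 in Hist1h4d. The shares therefore do not give how much of the counted sequence was shared. The parts played by length, shared sequence, the annotated end and the selection of polyA RNA were not tested and cannot be told apart here.

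**Figure D4:**
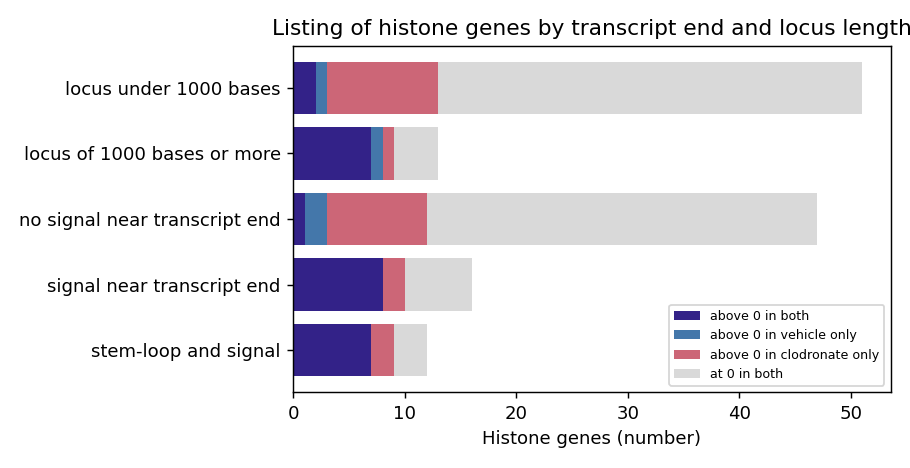
Number of histone genes by listing (above 0 in both libraries, in vehicle only, in clodronate only, or at 0 in both), for genes with and without a polyadenylation signal in the last 40 bases of the transcript, with a signal and a stem-loop, and by locus length. Of 16 genes with a signal 8 were above 0 in both libraries, and of 47 without one 1 was.

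The genes listed as replacement histones, most of which are also made outside S phase and are polyadenylated, were at a far higher level in sum. Their 12 measured genes summed to 1167 RPKM with vehicle and 1038 RPKM with clodronate. The H3.3 genes were listed at 447 and 396 RPKM (H3f3a) and at 187 and 206 RPKM (H3f3b), and H2afz, which encodes H2A.Z, at 412 and 286 RPKM. At least 3-fold higher with clodronate were 2 of the 9 that reached 1 RPKM on average, against 2.86% of all such genes. They were H2afx, whose product H2AX marks DNA breaks when phosphorylated, at 4.08 and 15.9 RPKM, and H2afv, a second H2A.Z gene, at 3.70 and 13.8 RPKM. None was 3-fold lower, and the median log2 ratio was 0.13. The linker histone gene H1f0 was listed at 19.0 and 21.9 RPKM and Cenpa, the centromeric H3, at 9.73 and 15.3 RPKM.

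The genes for making and removing histone mRNA showed medians near that of all genes. Of the 15 genes of histone gene transcription none was past 3-fold (median 0.20). Npat, the coactivator of histone genes phosphorylated by cyclin E and Cdk2, was listed at 1.59 and 2.28 RPKM, and Casp8ap2 (FLASH), which acts in histone mRNA processing, at 3.84 and 0.993 RPKM. Of 22 genes of 3′ end formation 1 was 3-fold higher, Snrpf, a shared Sm protein, at 0.952 and 11.1 RPKM, and the median was 0.04. Slbp itself was listed at 36.2 and 19.1 RPKM, a log2 ratio of -0.89. Of 17 genes of histone mRNA decay 1 was 3-fold higher, Lsm2 of the Lsm ring at 13.4 and 60.7 RPKM, and the median was 0.11, while the 3′ exonuclease gene Eri1 was listed at 9.56 and 10.4 RPKM.

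Chaperones that carry new histones to DNA, and genes of DNA replication and mitosis, were mostly higher with clodronate. Of 22 chaperone genes 18 had a ratio above 0 and 4 below, with a median of 0.33, beside 51.6% above 0 and 2.86% at least 3-fold higher over all genes that reached 1 RPKM on average. Past 3-fold was 1 chaperone gene, Mcm2, which is also in the S phase list, and Chaf1a of the chromatin assembly factor CAF-1 was listed at 1.99 and 7.59 RPKM. Of 32 S phase genes 22 were above 0, 10 below and 1 past 3-fold, the helicase subunit gene Mcm2 at 4.19 and 22.4 RPKM, with a median of 0.68. Rrm2, which makes deoxynucleotides, was listed at 6.61 and 18.4 RPKM, but Pcna, the sliding clamp, at 176 and 167 RPKM. All 20 genes of the G2/M list had a ratio above 0 (median 0.96), 4 of them past 3-fold, such as Birc5 (survivin) at 2.81 and 27.1 RPKM. Of the 5 clustered histone genes with the most reads over both libraries, Hist1h1c, Hist1h2bc, Hist2h3c1 and Hist4h4 had a lower level with clodronate and Hist3h2a a higher one. The lists were compared by counts and medians only, and no difference between them was tested.

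**Figure D5:**
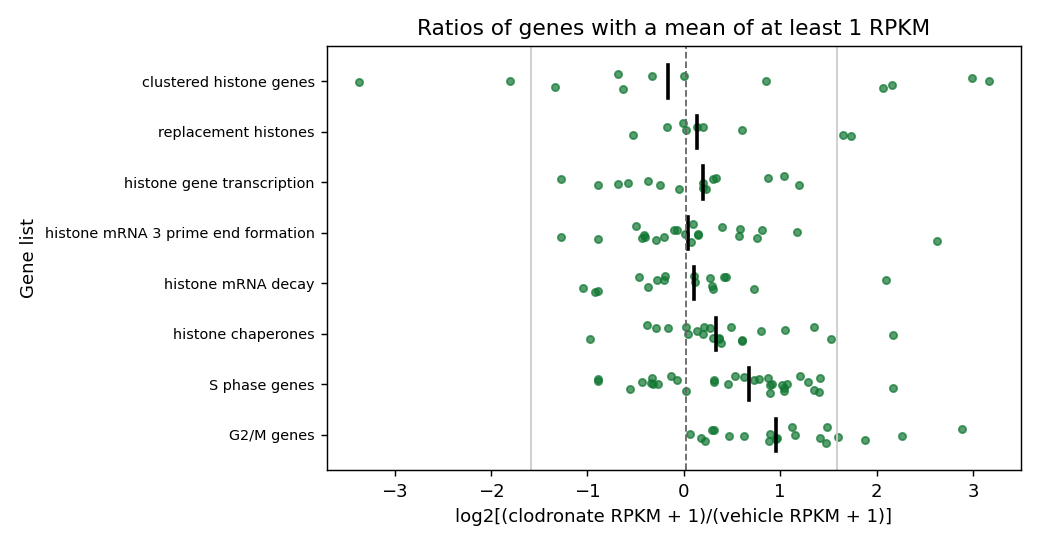
Log2 ratio of clodronate over vehicle (RPKM + 1) for genes that reached 1 RPKM on average; points are genes with vertical jitter, black bars list medians, the dashed line the median of all genes (0.02) and grey lines 3-fold. The histone genes spread on both sides (median -0.16), whereas the G2/M genes lie above 0 (median 0.96).

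Other measures also moved between the libraries. All 16 macrophage markers found were present in both, with sums of 30581 RPKM for vehicle and 27935 RPKM for clodronate and a median log2 ratio of -0.04, whereas of 8 epithelial markers, which a carcinoma cell could carry, 4 including Epcam were at 0 in both libraries and the sums were 14.98 and 10.97 RPKM, so that macrophage markers were high in both libraries although the labels call the cells tumor cells. Markers particular to LLC cells were not checked. Fibroblast markers (10 found) summed to 160 and 76.9 RPKM, endothelial markers (8) to 3.34 and 7.90 RPKM, and neutrophil markers (9) to 43.1 and 45.1 RPKM. T and NK cell markers (11) summed to 12.03 and 9.76 RPKM and B cell markers (5) to 2.99 and 1.74 RPKM, while the 4 erythroid markers found were at 0 in both. Few genes carried some of these sums, which do not give shares of cell types. Of the neutrophil markers 6 were at 0 in both libraries, and of the T and NK cell markers 4, with Cd4 at 10.3 and 7.72 RPKM. Most of the fibroblast sum lay in Dcn (77.3 and 28.4 RPKM) and Col3a1 (62.1 and 34.4 RPKM). Of the 8 fibroblast markers that reached 1 RPKM on average, only Col1a1 had a ratio above 0 (2.32 and 5.40 RPKM). RNAs that lack a poly(A) tail, mostly small nucleolar RNAs, summed to 12305 RPKM with vehicle and 29537 RPKM with clodronate over 114 genes, 77 of them at 0 in both. Single loci weighed heavily on these sums, such as Snord49b at 0 and 6895 RPKM and Snora75 at 4789 and 1737 RPKM. Of the 37 that reached 1 RPKM on average, 23 were at least 3-fold higher with clodronate and 8 at least 3-fold lower. Over all such genes the shares were 2.86% and 2.32%. Of the higher RNAs all but Rmrp (24.8 and 119 RPKM) were listed at 0 with vehicle. Of the lower RNAs all but Rnu12, Snora23 and Snora31 were listed at 0 with clodronate. These RNAs passed the filter only through the library where they were high, so the shares are not like for like. The part of these RNAs in the histone values was not tested.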

How the data were processed

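The authors deposited RPKM values per gene locus for each library. The submitters' processing notes name CASAVA 1.8.2, TopHat2 2.0.9, Bowtie 0.12.9, Cufflinks 2.2.1, Cuffdiff and the build mm9, with no settings. The paper given for the series describes another experiment and was not used for methods. No count model was run on RPKM. Rows of a symbol were summed, and 26 loci whose symbol had become a number were named by accession. Ratios were log2 of RPKM + 1, which understates changes of low genes. Genes averaging 1 RPKM or more were kept for counts at 3-fold and medians. The depth is not given by the files, and reads were recovered from the steps of single-exon loci as described in the report. Stem-loops, polyadenylation signals and shared 50-base words came from GENCODE M21 transcripts on GRCm38, and promoters from RefSeq, matched by RefSeq identifier. Coordinates were not converted between builds. Python 3.11.15, numpy, pandas and scipy were used, and the calculations were tested on simulated data. All histone genes could be named, and those averaging 10 RPKM or more or past 3-fold were. The members and the 16 other gene lists were chosen with earlier results of these data known. Pseudocount, scaling, filter, fold and membership were varied.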

Additional observations from a re-analysis of the deposited data

How the results depend on the processing

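No paired analysis was possible because there was 1 library per condition and no test. The ratios of the histone total and of the H1 and H2B sums kept their direction and stayed within 1.5 times under every alternative tried. Without Hist1h1c, however, the log2 ratio of the total was -0.025, so the lower total rested largely on this gene. The H1 ratio without it was -1.05, from Hist1h1d alone at 1.07 and 0 RPKM. The median log2 ratio of the histone genes changed sign to 0.035 when both libraries were scaled to the same RPKM total, and to 0.064 when small RNA loci were left out of that total (chosen after seeing the data). Without the highest gene of a class the H2A ratio was 3.37 and the H3 ratio turned to 0.64. Without genes listed at 0 in either library the H2A ratio was 0.85 and the H4 ratio turned to -0.48, and the counts past 3-fold were 0 higher and 1 lower (the counts chosen after seeing the data). Summing recovered reads in place of RPKM, also chosen after seeing the data, turned the H4 ratio to -1.11, as the reads weight long loci. With a mean of at least 5 RPKM required, 0 genes were 3-fold higher and 0 lower, since fewer genes were left. Of 48 values of the 8 genes named for their level or fold, 6 moved by over 1.5 times, all with a pseudocount of 0.1 RPKM and none to the other sign. With 2 to 39 reads behind the genes above 0 with clodronate only, and no replicates, depth limits what can be said of any of them.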

Other observations

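Other neighbours in the histone clusters were listed on 1 side of a pair or on both. Hist2h2ac and Hist2h2be on chromosome 3, head to head with 276 bases between their loci, gave only Hist2h2be, at 0.961 and 1.03 RPKM. Hist1h2ac and Hist1h2bc on chromosome 13, with 239 bases between them, gave only Hist1h2bc, at 34.4 and 21.9 RPKM, while Hist2h2aa2 and Hist2h3c1, with 569 bases between them, gave 0 and 0.390 RPKM for the H2A gene and 11.1 and 3.78 RPKM for the H3 gene. In these 3 pairs, unlike in Hist1h2ae and Hist1h2bg, the gene with the higher level was the same one in both libraries. Hist1h2bh and Hist1h3f, with 699 bases between them, were both at 0 with vehicle and at 2.0 and 0.556 RPKM with clodronate.

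By cluster, the Hist1 genes summed to 96.9 RPKM with vehicle and 85.4 RPKM with clodronate, a log2 ratio of -0.18, and the Hist2 genes to 23.0 and 13.7 RPKM, a log2 ratio of -0.70. Hist3, through Hist3h2a alone, gave 5.44 and 10.6 RPKM, a log2 ratio of 0.85, and Hist4, which is Hist4h4, 4.34 and 0.532 RPKM, a log2 ratio of -1.80. Outside the histone genes and small RNA loci, 4 genes were at 0 in 1 library and at 10 RPKM or more in the other: Ndufaf1, Ifitm6, Gm5176 and 1500012K07Rik.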
